A study of Mus musculus with 8 samples.

Results

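The transcripts of 10 chemokine genes, Cxcl1, Cxcl2, Cxcl5, Cxcl9, Cxcl10, Cxcl11, Cxcl16, Ccl2, Ccl20 and Cx3cl1, were followed in sorted Paneth cells, the antimicrobial secretory cells of the small intestinal crypts. The genes were taken by symbol, and each of the 10 symbols matched 1 row of the count table of 55414 Ensembl gene IDs through the GENCODE mouse annotation. Paneth cells (PCs) came from the small intestine of mice that the labels give as WT, and the sorted PCs of the study were from C57BL/6J animals. One group of 4 libraries came from mice injected with PBS, the vehicle control, and one group of 4 from mice injected with TNF, an inflammatory cytokine, and in both groups the PCs were purified on a cell sorter after 3 hours. The design text calls the libraries of a group biological replicates. The labels and methods consulted do not state the dose and route of TNF or the age of the mice, and the methods say that the data sets used hold animals of both sexes without giving the sex per library. The question was how TNF alters gene expression in PCs.

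Chemokines are small proteins that direct the movement of leukocytes through G protein-coupled receptors. Cxcl1, Cxcl2 and Cxcl5 carry the ELR motif and attract neutrophils through Cxcr2. Cxcl9, Cxcl10 and Cxcl11 are interferon-inducible ligands of Cxcr3, the receptor of activated T cells and NK cells. Cxcl16 and Cx3cl1 are made as transmembrane proteins with a mucin-like stalk, and are cut from the surface by the proteases Adam10 and Adam17, and their receptors are Cxcr6 and Cx3cr1. Ccl2 attracts monocytes through Ccr2, and Ccl20 attracts Ccr6-positive dendritic cells and lymphocytes and is known as a product of intestinal epithelium. Many of these genes are under the control of NF-kB, the transcription factor family that TNF activates.

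The libraries held 23824717 to 32576077 counts. Of all 13368 genes tested, 23.4% were called higher and 19.6% lower in TNF at an adjusted p under 0.05 (edgeR's quasi-likelihood test with Benjamini-Hochberg adjustment), and in 22.4% every TNF library lay above every PBS library. TNF replicate 4 stood apart from the other 7 libraries, with a TMM scaling factor of 0.448 against 0.995 to 1.36 and a second principal component of 63.88 against -29.06 to 4.217. Scaling by library size alone moved the median log2 fold change of all genes by -0.40 and left 23.8% of all calls in the higher direction, against 54.3% with TMM. In the following, normalized CPM means CPM computed on the TMM-scaled library size. In bulk RNA, fewer cells of a type and less RNA per cell cannot be told apart.

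A total of 7 of the 10 chemokine genes passed the filter on low counts, and all 7 were called higher in TNF, where 23.4% of all tested genes were. The count and the median given next are descriptions, because 4 of the 7, Cxcl1, Cxcl9, Cxcl10 and Cxcl11, had at most 1 PBS library with more than 5 counts, passed the filter only through the TNF libraries and so were selected toward a difference. Cxcl2 and Cxcl5 did not pass it, and Ccl2 had 0 counts in all 8 libraries. In 6 of the 7, all except Cxcl9, every TNF library lay above every PBS library, as in 22.4% of all tested genes. The median log2 fold change of the 7 was 5.35, against 0.03 over all tested genes.

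**Figure D1:**
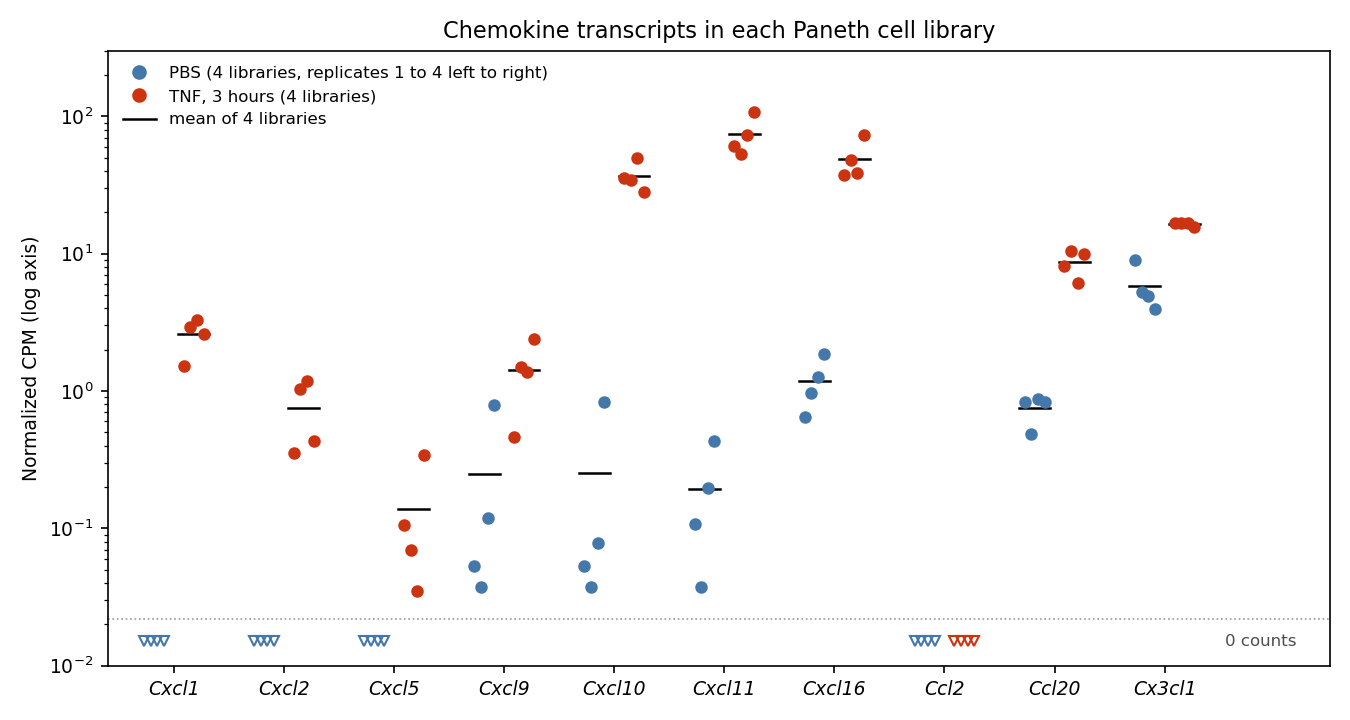
Normalized CPM (log axis) of each chemokine gene in each of the 4 PBS and 4 TNF libraries, with the group mean as a line and open triangles for 0 counts. Cxcl10, Cxcl11 and Cxcl16 lay at 28.3 to 107 in TNF and below 2 in PBS, Cxcl9 was the detected gene whose groups overlapped, and Ccl2 was at 0 throughout.

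The DNA just upstream of these genes is shown first, because NF-kB sites lie in some of these windows and not in others. In the 250 bases before the annotated start of the canonical transcript (GRCm39), the NF-kB consensus was found on either strand in 5 of the 10 genes, Cxcl1, Cxcl2, Cxcl5, Cxcl10 and Ccl20, against 7.62% of the 21770 windows of the same length before protein-coding genes. The 5 windows are given below, 5′ to 3′ on the strand of the gene, with the matches to NF-kB and, in Cxcl10, also to the interferon-stimulated response element (ISRE) core in capitals. They lie at chr5:91038844-91039093 (plus strand) for Cxcl1, chr5:91051480-91051729 (plus) for Cxcl2, chr5:90906987-90907185 (plus) for Cxcl5, chr5:92496749-92496998 (minus) for Cxcl10 and chr1:83094237-83094486 (plus) for Ccl20. The Cxcl5 window is printed up to position -52 from its canonical start, where the exon of another Cxcl5 transcript begins.
Cxcl1: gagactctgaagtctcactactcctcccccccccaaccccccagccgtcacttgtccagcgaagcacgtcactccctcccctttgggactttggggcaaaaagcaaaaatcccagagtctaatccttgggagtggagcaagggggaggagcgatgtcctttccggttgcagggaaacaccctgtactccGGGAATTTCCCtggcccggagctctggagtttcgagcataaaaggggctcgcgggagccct
Cxcl2: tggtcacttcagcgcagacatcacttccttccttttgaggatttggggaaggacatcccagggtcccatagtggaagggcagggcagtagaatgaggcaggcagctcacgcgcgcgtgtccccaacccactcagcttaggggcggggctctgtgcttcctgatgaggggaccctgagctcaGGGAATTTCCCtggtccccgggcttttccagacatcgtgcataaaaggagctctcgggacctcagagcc
Cxcl5: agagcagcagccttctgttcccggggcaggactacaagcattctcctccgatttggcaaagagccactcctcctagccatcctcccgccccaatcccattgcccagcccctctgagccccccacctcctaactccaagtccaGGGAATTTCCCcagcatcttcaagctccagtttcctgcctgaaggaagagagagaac
Cxcl10: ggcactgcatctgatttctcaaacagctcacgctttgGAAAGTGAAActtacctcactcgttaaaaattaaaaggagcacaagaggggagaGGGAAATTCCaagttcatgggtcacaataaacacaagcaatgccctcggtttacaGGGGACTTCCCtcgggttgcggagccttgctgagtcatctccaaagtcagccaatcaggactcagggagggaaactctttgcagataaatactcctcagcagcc
Ccl20: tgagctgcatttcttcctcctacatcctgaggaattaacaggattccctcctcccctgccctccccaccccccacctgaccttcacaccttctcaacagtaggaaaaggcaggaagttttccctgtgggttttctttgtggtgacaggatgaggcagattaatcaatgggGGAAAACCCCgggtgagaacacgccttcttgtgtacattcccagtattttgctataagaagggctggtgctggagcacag
The first 3 carried the same stretch, GGGAATTTCCC, in which the NF-kB consensus matches once on each strand, offset by 1 base. Counted from the transcript start, it lay at -61 to -51 in Cxcl1, at -69 to -59 in Cxcl2 and at -108 to -98 in Cxcl5. Cxcl10 had NF-kB matches at -159 to -150 and at -104 to -94, and was the one gene of the 10 with the ISRE core GAAANNGAAA, at -213 to -204, which 3.32% of all windows hold. Cxcl10 also had the AP-1 core TGANTCA (6.17% of windows), and Ccl2 was the one gene with the STAT site core TTCNNNGAA (7.7% of windows). No match to any of these 4 motifs was found in the windows of Cxcl9, Cxcl11, Cxcl16 and Cx3cl1, which says only that these letters are not in those 250 bases. The window of Cxcl16 lies inside exons, both of longer Cxcl16 transcripts and of Zmynd15 on the other strand. The NF-kB match of Cxcl5 lies inside an exon of Gm72413, a noncoding gene on the other strand. In the Cxcl11 window, 26 bases lie in an exon of the pseudogene Gm2673 on the other strand. A match is a description of the sequence and was not tested as a binding site.

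**Figure D2:**
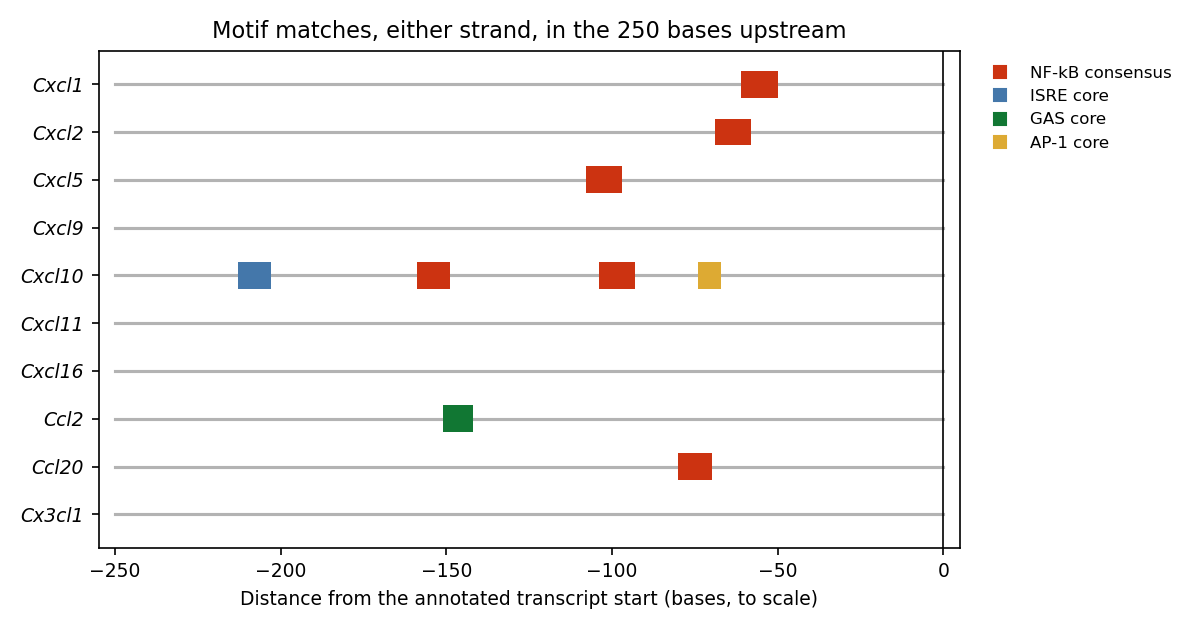
Position of each motif match, on either strand, in the 250 bases before the annotated transcript start of each gene (x axis, distance in bases, to scale). The NF-kB consensus was found in 5 of the 10 windows, and the Cxcl10 window held 3 of the 4 kinds of motif.

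Among the neutrophil-attracting ligands, Cxcl1 and Cxcl2 were absent from the PBS libraries and present in each TNF library. Cxcl1 (ENSMUSG00000029380, 4 exons, chr5:91039094-91040974) had 0 counts in the 4 PBS libraries and 43, 84, 94 and 30 counts in TNF replicates 1 to 4, which is 1.53, 2.91, 3.3 and 2.58 normalized CPM. No TNF library was near 0, and replicate 4 had the fewest counts but not the lowest normalized value. The TNF mean was 2.58 ± 0.76 (SD, n = 4), at least 27.3-fold higher than the mean PBS floor of 0.0945 normalized CPM that 3 counts per library set. It was called higher with an adjusted p of 2.60e-05 by edgeR's quasi-likelihood test with Benjamini-Hochberg adjustment, and its fitted log2 fold change of 9.22 (SE 0.68) depends on the prior count and is no bound.

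Cxcl2 (ENSMUSG00000058427, chr5:91051730-91053797), next to Cxcl1 on the same strand, had 0 counts in the PBS libraries and 10, 30, 34 and 5 counts in TNF replicates 1 to 4. These were 0.355, 1.04, 1.19 and 0.429 normalized CPM, with replicates 2 and 3 at the high end, as for Cxcl1. The TNF mean of 0.754 ± 0.424 (SD, n = 4) was at least 7.98-fold higher than the PBS floor. Cxcl2 fell under the filter on low counts, and its exact two-sided permutation test over the 8 libraries gave p = 0.0286, the smallest that 70 assignments allow (adjusted p = 0.0286 over the 2 genes tested this way). A small part of Cxcl2 reads could be shared with its paralog Cxcl3, since 96.5% of the 75-base stretches of the transcript were unique, and Cxcl3 itself had at most 2 counts in any library.

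Cxcl5 (ENSMUSG00000029371, chr5:90907186-90909483) was at the detection limit. It had 0 counts in the PBS libraries and 3, 2, 1 and 4 counts in the TNF libraries, which is 0.106, 0.0692, 0.0351 and 0.343 normalized CPM. The TNF mean of 0.139 ± 0.14 (SD, n = 4) did not exceed the TNF floor of 0.143, so that no fold is given, and 88.8% of its 75-base stretches were unique without regard to strand. The exact two-sided permutation test gave p = 0.0286, again the smallest possible. Fitted without the filter, Cxcl2 and Cxcl5 were called higher as well, with adjusted p of 9.84e-07 and 0.016 by edgeR's quasi-likelihood test with Benjamini-Hochberg adjustment.

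Of the Cxcr3 ligands, Cxcl11 and Cxcl10 rose the most steeply among the genes detected in both groups, and Cxcl9 rose less, with a call that did not hold under all alternatives. The 3 genes are neighbours on the minus strand of chromosome 5. Cxcl10 (ENSMUSG00000034855, chr5:92494497-92496748) had 2, 1, 2 and 37 counts in PBS replicates 1 to 4 and 1003, 986, 1417 and 330 in TNF replicates 1 to 4. In normalized CPM these were 0.0536, 0.0372, 0.0788 and 0.837 in PBS and 35.6, 34.1, 49.7 and 28.3 in TNF. The groups were far apart, but PBS replicate 4 lay far above the other PBS libraries. The mean went from 0.252 ± 0.391 to 36.9 ± 9.08 (SD, n = 4 each), a log2 fold change of 6.94 (SE 0.58, 123-fold, adjusted p = 7.07e-06 by edgeR's quasi-likelihood test with Benjamini-Hochberg adjustment). Without PBS replicate 4 the PBS mean was 0.0565 ± 0.021 (n = 3) and the log2 fold change 9.23 (600-fold, adjusted p = 7.02e-07 by the same edgeR test). Those PBS libraries held 2, 1 and 2 counts, under the floor of 3 counts, so the size of this fold is not well measured.

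Cxcl11 (ENSMUSG00000060183, chr5:92507403-92513344) had 4, 1, 5 and 19 counts in PBS and 1720, 1546, 2079 and 1249 in TNF. These were 0.107, 0.0372, 0.197 and 0.43 normalized CPM in PBS and 61, 53.5, 72.9 and 107 in TNF. Every TNF library was far above the highest PBS library, and replicate 4 was the highest of its group on both sides, although in CPM of the plain library size TNF replicate 4 was the lowest of its group (48.1 against 53.2 to 77.6). The mean of 0.193 ± 0.171 became 73.7 ± 23.8 (SD, n = 4 each), a log2 fold change of 8.41 (SE 0.43, 340-fold, adjusted p = 3.19e-07 by edgeR's quasi-likelihood test with Benjamini-Hochberg adjustment). Without PBS replicate 4 the fold was 610, which rests on 4, 1 and 5 PBS counts and is not well measured. The annotation marks the canonical Cxcl11 transcript of this genome, that of C57BL/6J, as loss of function, so that in these animals the transcript level is not a measure of a full-length Cxcl11 protein.

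Cxcl9 (ENSMUSG00000029417, chr5:92469206-92475945) had 2, 1, 3 and 35 counts in PBS and 13, 43, 39 and 28 in TNF. In normalized CPM these were 0.0536, 0.0372, 0.118 and 0.792 in PBS and 0.461, 1.49, 1.37 and 2.4 in TNF. The groups overlapped, because PBS replicate 4 lay above TNF replicate 1. The mean was 0.25 ± 0.363 in PBS and 1.43 ± 0.795 in TNF (SD, n = 4 each), and the fitted log2 fold change was 2.28 (SE 0.76, adjusted p = 0.0332 by edgeR's quasi-likelihood test with Benjamini-Hochberg adjustment). The call was lost in 6 of 16 alternatives, which were library size alone (1.71, adjusted p = 0.098) and leaving out PBS replicate 1, 2 or 3 or TNF replicate 2 or 3 (1.91 to 2.29, adjusted p = 0.058 to 0.0795 by edgeR). Without PBS replicate 4 it was the clearest, with a log2 fold change of 4.21 (adjusted p = 0.000906 by edgeR), which rests on 2, 1 and 3 PBS counts.

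The balance of the pair Cxcl11 and Cxcl10 also set TNF replicate 4 apart. There were 1.71, 1.57 and 1.47 Cxcl11 counts for each Cxcl10 count in TNF replicates 1 to 3 and 3.78 in replicate 4. In PBS replicate 4, the one PBS library with more than 5 counts for each of them, the ratio was 0.514. A ratio within 1 library does not depend on its scaling.

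The transmembrane chemokines differed in their starting level. Cxcl16 (ENSMUSG00000018920, 5 exons in its canonical transcript, chr11:70344517-70352620, minus strand), which is also a scavenger receptor for oxidized lipoprotein, had 24, 26, 32 and 82 counts in PBS and 1046, 1399, 1108 and 844 in TNF. These were 0.643, 0.967, 1.26 and 1.86 normalized CPM in PBS and 37.1, 48.4, 38.9 and 72.5 in TNF. The groups did not overlap, and replicate 4 was once more the highest of each, although in plain CPM TNF replicate 4 was the lowest of its group (32.5 against 41 to 48.2). The mean of 1.18 ± 0.515 became 49.2 ± 16.3 (SD, n = 4 each), a log2 fold change of 5.35 (SE 0.34, 40.8-fold, adjusted p = 1.01e-06 by edgeR's quasi-likelihood test with Benjamini-Hochberg adjustment).

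The Cxcl16 value carries a limit of annotation. On the opposite strand, Med11 shares 2213 and Zmynd15 2132 exon bases with Cxcl16, so that 14.3% of its 75-base stretches were unique when strand was ignored and 100% when it was kept. The library kit marks strand, but no source consulted states the strand setting of the counting. Zmynd15 rose in parallel, from 0.441 ± 0.213 to 17.3 ± 4.86 normalized CPM (log2 fold change 5.24, SE 0.32, adjusted p = 8.83e-07 by edgeR's quasi-likelihood test with Benjamini-Hochberg adjustment). With 8, 9, 13 and 31 counts in PBS, Zmynd15 passed the filter on low counts only through the TNF libraries, so its call is a description. The ratio of Cxcl16 to Zmynd15 counts stayed between 2.46 and 3 in all 8 libraries. Med11 rose from 5.73 ± 0.36 to 17.7 ± 11 (log2 fold change 1.61, adjusted p = 0.0025 by edgeR), and the ratio of Cxcl16 to Med11 counts went from 0.112 to 0.355 in PBS to 2.12 to 3.56 in TNF. Which of these genes the shared reads came from was not tested.

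The same limit touched Cxcl10, Cxcl11 and Cx3cl1 less. Of the Cxcl11 stretches 59.5% were unique without strand, the rest being shared with Gm2673, which had 15 to 28 counts in TNF, so that Cxcl11 had 70.3 to 86 counts for each of its own there. Of the Cxcl10 stretches 94.3% were unique, and Art3, which shares the rest, rose from 0.0536 ± 0.0502 to 3.07 ± 0.967 normalized CPM (log2 fold change 5.63, adjusted p = 8.94e-06 by edgeR). With 1, 2, 0 and 5 counts in PBS, Art3 too passed the filter only through the TNF libraries, so its call is a description.

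Cx3cl1 (ENSMUSG00000031778, chr8:95498637-95509055), also called fractalkine, was the most abundant of the 10 in PBS, also per length, and 89% of its 75-base stretches were unique without strand, the rest being shared with 1700121C10Rik, which was not analysed here. It had 336, 141, 125 and 176 counts in PBS and 470, 485, 474 and 182 in TNF, which is 9, 5.24, 4.92 and 3.98 normalized CPM in PBS and 16.7, 16.8, 16.6 and 15.6 in TNF. The TNF libraries lay close together after TMM scaling and above all PBS libraries. The mean of 5.79 ± 2.21 became 16.4 ± 0.538 (SD, n = 4 each), a log2 fold change of 1.5 (SE 0.22, 2.84-fold, adjusted p = 0.000327 by edgeR's quasi-likelihood test with Benjamini-Hochberg adjustment), the smallest of the 7. In CPM of the plain library size, TNF replicate 4 had 7 and PBS replicate 1 had 11.3, so that the groups overlapped, and the log2 fold change with library size alone was 1.12 (adjusted p = 0.0357 by edgeR).

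Of the CC chemokines, Ccl20 rose and Ccl2 was not detected. Ccl20 (ENSMUSG00000026166, chr1:83094487-83096888) had 31, 13, 22 and 37 counts in PBS and 228, 302, 173 and 117 in TNF. These were 0.831, 0.483, 0.867 and 0.837 normalized CPM in PBS and 8.09, 10.4, 6.07 and 10 in TNF. The PBS libraries agreed closely except for the lower replicate 2, and no TNF library came near them. The mean went from 0.754 ± 0.181 to 8.66 ± 2.01 (SD, n = 4 each), a log2 fold change of 3.49 (SE 0.25, 11.3-fold, adjusted p = 2.07e-06 by edgeR's quasi-likelihood test with Benjamini-Hochberg adjustment). Ccl2 (ENSMUSG00000035385, chr11:81926397-81928279) had 0 counts in all 8 libraries, which allows a mean level of up to 0.0945 normalized CPM in PBS and 0.143 in TNF. All of its 75-base stretches (100%) were unique. These limits, like the folds against a floor, cover counting error only.

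**Figure D3:**
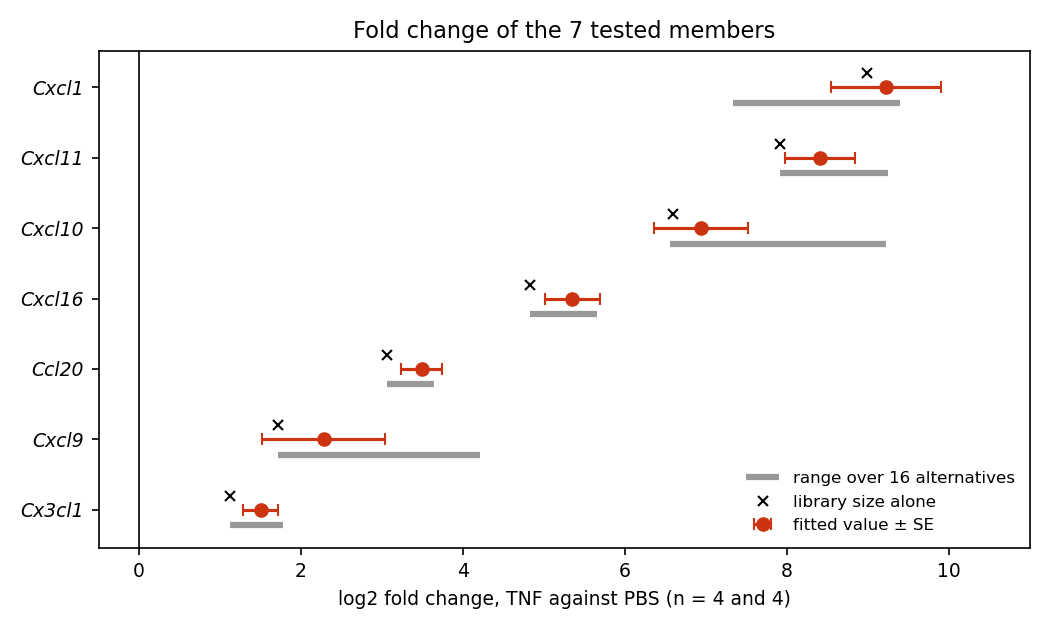
Fitted log2 fold change (TNF against PBS, x axis) with its standard error for the 7 tested chemokine genes, the range over 16 alternatives as a gray bar and the value with library size alone as a cross. All values lay above 0, Cxcl9 had the largest standard error, 0.76, and the Cxcl1 value depends on the prior count since its PBS libraries held 0 counts.

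To compare genes with each other, counts were divided by the length of the canonical transcript and scaled to the same sum in each library, as for TPM. In PBS the order was Cx3cl1 with 1.68 ± 0.764, Ccl20 with 0.915 ± 0.318, Cxcl16 with 0.388 ± 0.23, Cxcl10 with 0.256 ± 0.421, Cxcl9 with 0.0954 ± 0.149 and Cxcl11 with 0.0529 ± 0.0547 (SD, n = 4). In each neighbouring pair of these 6 the ranges overlapped, and the other 4 genes were at 0. Without PBS replicate 4 (n = 3), Cxcl10 was at 0.0454 ± 0.0162, Cxcl11 at 0.0265 ± 0.0174 and Cxcl9 at 0.0209 ± 0.0116, so that Cxcl9 and Cxcl11 changed places. In TNF the order began with Cxcl10 at 25.1 ± 13.5, Cxcl11 at 12.6 ± 3.9, Cxcl16 at 10.5 ± 2.55 and Ccl20 at 7.36 ± 2.96 (SD, n = 4). It went on with Cx3cl1 at 3.55 ± 1.5, Cxcl1 at 1.89 ± 1, Cxcl2 at 0.517 ± 0.386, Cxcl9 at 0.299 ± 0.132 and Cxcl5 at 0.0441 ± 0.0206. Neighbours in this order overlapped in their ranges down to Cxcl9, while Cxcl5 and Ccl2 each lay apart from the gene above. Cx3cl1 was thus the first gene in PBS and the fifth in TNF. With the merged exon length in place of the canonical transcript, Cxcl11 (14.5 ± 4.62) and Cxcl10 (14.2 ± 7.68) changed places at the top in TNF, with overlapping ranges.

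The make-up of the summed chemokine level changed accordingly. The sum of the 10 genes was 3.38 ± 1.26 in PBS and 61.8 ± 23.7 in TNF on this per-length scale (SD, n = 4 each). The Cxcr3 ligands took 2.35, 2.2, 5.21 and 28.6% of it in PBS replicates 1 to 4 and 62.2, 54.4, 68.3 and 55.1% in TNF. The groups did not overlap, and PBS replicate 4 held a share unlike that of the other PBS libraries, whose mean without it was 3.25 ± 1.7% (n = 3). The transmembrane pair took 72.2, 74.3, 60.5 and 45.4% in PBS and 22.3, 25.3, 19 and 29.1% in TNF, and this lower share went with a higher level of both genes. Ccl20 took 27.3 ± 4.76% in PBS and 12.2 ± 3.14% in TNF, and the ELR chemokines 0% and 3.85 ± 1.12%. Within the transmembrane pair, Cx3cl1 went from 51.4 ± 16.6% to 5.62 ± 0.764% of the sum, while Cxcl16 went from 11.7 ± 4.43% to 18.3 ± 4.63%. These shares are descriptions and were not tested.

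**Figure D4:**
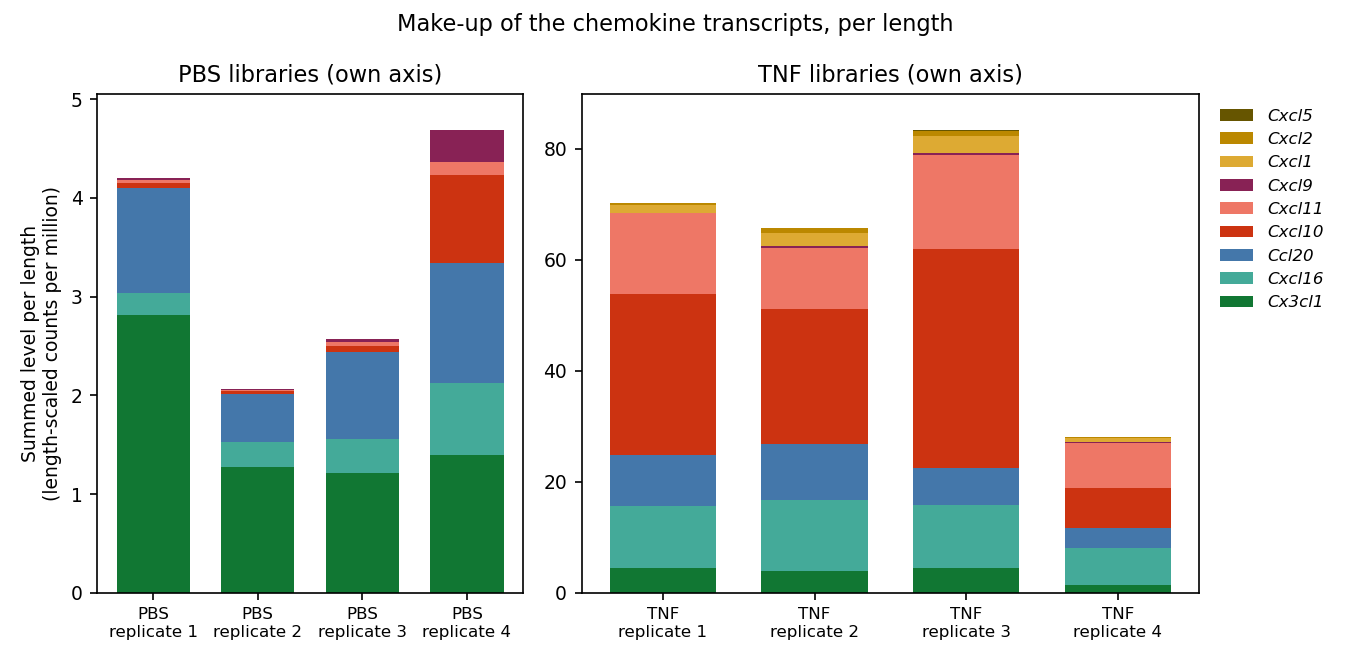
Stacked level per length (length-scaled CPM) of the chemokine genes in each PBS library (left) and TNF library (right), each panel with its own axis from 0. Cx3cl1 was the largest part in each PBS library, Cxcl10 was the largest in TNF replicates 1 to 3, and Cxcl11 with 28.4% was the largest in TNF replicate 4.

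Set among all chemokine ligands, the 10 genes made a small part of the chemokine mRNA of these PCs. They took 0.215 ± 0.0761% of the summed per-length level of all 38 ligands in PBS and 6.26 ± 1.95% in TNF (SD, n = 4 each). The bulk was Ccl6, a CC chemokine also made by myeloid cells, at 1457 ± 70.1 in PBS and 788 ± 130 in TNF on the per-length scale. Ccl6 was not called in normalized CPM, with 2244 ± 377 in PBS and 1861 ± 877 in TNF (log2 fold change -0.27, SE 0.30, adjusted p = 0.49 by edgeR's quasi-likelihood test with Benjamini-Hochberg adjustment), but was called lower with library size alone (-0.82, adjusted p = 0.00665 by edgeR) and without TNF replicate 4 (-0.64, adjusted p = 0.00315). Of the other 28 ligands, 16 had 0 counts in all libraries and 6 were tested, and 1 of these was called higher and none lower, where 23.4% and 19.6% of all tested genes were. At an unadjusted p under 0.05 the count of lower ones was also 0 in this edgeR fit and in DESeq2, but it was 1 without PBS replicate 4 and in edgeR without the filter, 2 with library size alone and 3 without TNF replicate 4. Without PBS replicate 4, Ccl25 was called lower (-0.49, adjusted p = 0.0488 by edgeR). The one called was Ccl9, with 239 ± 11.6 normalized CPM in PBS and 341, 345, 265 and 1261 in TNF (log2 fold change 1.21, SE 0.43, adjusted p = 0.0441 by edgeR), and without TNF replicate 4 its log2 fold change was 0.42 (adjusted p = 0.00851). The call on Ccl9 was lost in 8 of 16 alternatives. Ccl7 and Ccl12, close relatives of Ccl2, were at 0 in every library as Ccl2 was.

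**Figure D5:**
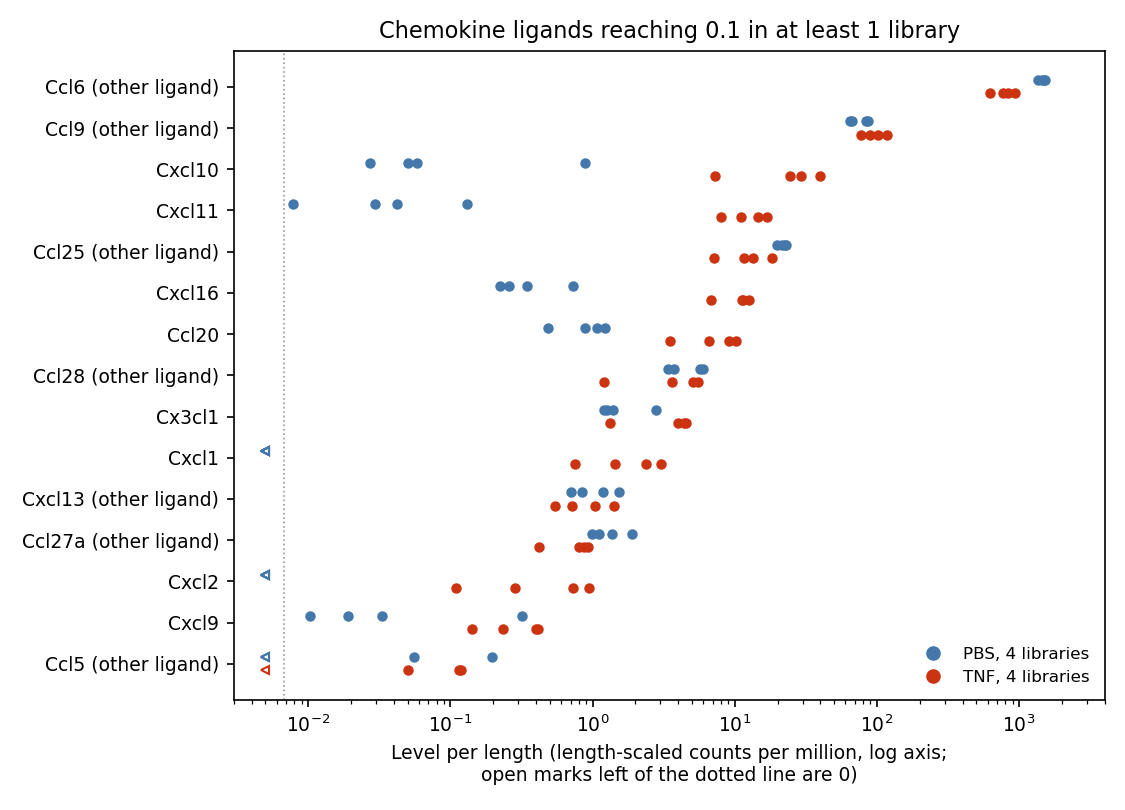
Level per length (log axis) of each chemokine ligand that reached 0.1 in at least 1 library, ordered by the TNF mean, with 1 point per library and open marks for 0. Ccl6 stood highest in both groups, while Cxcl10, Cxcl11, Cxcl16 and Ccl20 lay among the other ligands in TNF and lower in PBS.

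The main signalling receptors of the 10 chemokines were at or near 0 in these cells. Ccr2 and Ccr6, the receptors of Ccl2 and Ccl20, and the scavenger Ackr2 had 0 counts in all 8 libraries. Cxcr2 had at most 2 counts, Cxcr3 at most 1, Cxcr6 at most 2 and Cx3cr1 at most 5 in any library, while Ackr3, an atypical receptor that also binds Cxcl11, had 1 to 14. Of the 23 receptor genes, 10 were at 0 throughout and 4 were tested, of which 1 was called higher and 3 lower (23.4% and 19.6% of all tested genes). Of the 3 lower ones, Cxcr4 and Ackr1 passed the filter only through the PBS libraries and so were selected toward a difference, and nothing is read from this count. The higher one was Ccrl2, an atypical receptor that binds chemerin, with 4.79 ± 0.784 normalized CPM in PBS and 26.8 ± 2.6 in TNF (log2 fold change 2.48, SE 0.15, adjusted p = 6.70e-07 by edgeR). Ackr1, which binds many inflammatory chemokines and does not signal, fell from 1.5 ± 0.419 to 0.285 ± 0.185 (-2.25, SE 0.39, adjusted p = 0.000987 by edgeR). Cxcr4, the receptor of Cxcl12, fell from 1.75 ± 0.388 to 3, 2, 0 and 5 counts in TNF, a mean of 0.151 ± 0.191 that is close to the TNF floor of 0.143 (adjusted p = 0.000353 by edgeR), and its fitted log2 fold change of -3.95 (SE 0.59) moved to -4.79 without TNF replicate 4. The third lower one was Ackr4, a scavenger of homeostatic chemokines (-0.92, adjusted p = 0.00851).

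Of 11 genes that shed, trim or hold chemokines at the surface, all were tested, 7 were called higher and 3 lower (23.4% and 19.6% of all tested genes). The sheddase of both transmembrane chemokines, Adam10, rose from 39.5 ± 2.06 to 72.6 ± 10.4 normalized CPM (log2 fold change 0.88, SE 0.13, adjusted p = 0.000247 by edgeR), and Adam17 from 11.7 ± 0.36 to 15.7 ± 1.91 (0.43, SE 0.12, adjusted p = 0.0131). Both calls were lost with library size alone, with log2 fold changes of 0.53 for Adam10 (adjusted p = 0.277 by edgeR) and 0.06 for Adam17 (adjusted p = 0.904). The Adam17 call was also lost without the filter (adjusted p = 0.0758), and when replicate 1 or 4 of PBS, or replicate 1 or 2 of TNF, was left out (adjusted p = 0.0515 to 0.105 by edgeR). The inactive rhomboids Rhbdf1 and Rhbdf2, which carry Adam17 to the surface, had log2 fold changes of 1.37 (adjusted p = 2.51e-05) and 1.81 (adjusted p = 2.45e-06) by edgeR. Sdc1, a heparan sulfate proteoglycan that binds chemokines, rose by 1.09 on the log2 scale (adjusted p = 0.000371 by edgeR), and this call was lost with library size alone (0.74, adjusted p = 0.107). Sdc4, the other syndecan of the list, fell from 50.5 ± 8.15 to 31.3 ± 6.62 normalized CPM (-0.69, SE 0.17, adjusted p = 0.00758 by edgeR). Dpp4, a peptidase that trims the Cxcr3 ligands, fell by 0.68 on the log2 scale (adjusted p = 0.00636 by edgeR). With library size alone 4 of the 11 were called, Rhbdf1 and Rhbdf2 higher and Dpp4 and Sdc4 lower.

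Of 12 transcription factors known to act on chemokine genes, 11 were called higher, where 23.4% of all tested genes were, and none lower, where 19.6% were (none in DESeq2, and none at an unadjusted p under 0.05 in edgeR). The NF-kB subunits Rel, Nfkb2, Relb and Rela had log2 fold changes of 4.48 (SE 0.25), 3.27 (SE 0.14), 3.08 (SE 0.12) and 2.31 (SE 0.16), with the largest adjusted p, 2.15e-06 by edgeR, for Rela. Bcl3, a nuclear partner of NF-kB, rose by 3.74 (SE 0.22) and Irf1, an activator of Cxcr3 ligand genes, by 2.35 (SE 0.14) on the log2 scale. Nfkbiz, a nuclear cofactor of NF-kB, was not called (0.39, SE 0.22, adjusted p = 0.179 by edgeR). Of 8 factors of mRNA decay and stability, 4 were called higher and 1 lower (23.4% and 19.6% of all tested genes). Zfp36 (tristetraprolin) and Zc3h12a (Regnase-1), which promote decay of inflammatory mRNAs, had log2 fold changes of 3.69 (SE 0.19) and 1.72 (SE 0.26), and Arid5a, which opposes Regnase-1, had 3.85 (SE 0.20), with adjusted p of at most 0.000397 by edgeR. The decay factor Zfp36l1, of the same family as Zfp36, was the one called lower (-0.56, SE 0.11, adjusted p = 0.00175 by edgeR, lost with library size alone, adjusted p = 0.0565), and Zfp36l2 (-0.05), Rc3h1 (0.13) and Rc3h2 (-0.12) were not called.

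Markers of other cells were examined, since leukocytes, endothelium and other epithelial cells also make chemokines. The 7 Paneth markers summed to 310880 to 459022 normalized CPM in PBS and 388025 to 1208489 in TNF, the highest in TNF replicate 4. Of the 35 markers of leukocytes, endothelium and fibroblasts, 14 were at 0 in all libraries and 23 never exceeded 3 counts. All 4 neutrophil and all 7 T and NK cell markers were among these 23, with Cd3e, S100a8 and Csf3r at 0. The pan-leukocyte list (4 markers) summed to 0.543 to 0.985 normalized CPM in PBS and 0.807 to 4.12 in TNF, with Cd52 called higher and Ptprc at 0 to 10 counts. The macrophage list (7 markers) summed to 11.8 to 16.6 in PBS and 20.4 to 81.2 in TNF, with Cd14 called higher, Adgre1 at 0, C1qa at 24 counts in TNF replicate 4 and at most 1 in any other library, and Lyz2 giving most of the sum in TNF replicate 4. The B and plasma cell list (4 markers) summed to 0.0744 to 0.158 in PBS and 0.532 to 1.12 in TNF, with Ms4a1 called higher and Cd79a at 0, the endothelial list (4 markers) to 0.512 to 0.928 and 1.23 to 2.92, with Vwf called higher, and the fibroblast list (5 markers) to 0 to 0.0536 and 0.0702 to 0.284. With 5, 2, 4 and 4 counts in PBS, Ms4a1 passed the filter on low counts only through the TNF libraries, so its call is a description.

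Among epithelial lists, the 3 enteroendocrine markers were all called higher, with sums of 9.59 to 12.7 normalized CPM in PBS and 29.4 to 57.6 in TNF. The 5 goblet markers summed to 2898 to 4905 and 4858 to 6647, with Muc2 called higher and Clca1 and Fcgbp lower. The 6 enterocyte markers summed to 49.8 to 69.5 and 38.9 to 87 with Apoa4 called lower, the 3 tuft markers to 11.9 to 27.3 and 7.58 to 52.9 with none called, and the 3 M cell markers to 2.4 to 4.45 and 2.42 to 8.67 with none called. With 7, 1, 1 and 1 counts in TNF, Apoa4 passed the filter only through the PBS libraries, so its call is a description. The part of these cells in the chemokine values was not tested.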

How the data were processed

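Per the labels, RNA of the sorted Paneth cells went from an Aurum column kit into TruSeq Stranded mRNA libraries. The authors deposited 1 table of raw counts per Ensembl gene ID, not normalized. The submitters' processing notes name FastQC 0.12, STAR 2.7.10a, DESeq2 and the mm39 build. For the counter, its annotation, its strand setting and its treatment of multi-mapping reads: not given in the sources used. All columns matched a label.

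IDs were named with GENCODE mouse release 39 (GRCm39), which matched 54749 of 55414. Counts were fitted with edgeR 4.0.16 (R 4.3.3; TMM scaling, filterByExpr, quasi-likelihood F test, Benjamini-Hochberg adjustment over 13368 genes). A gene was called at an adjusted p under 0.05. On simulated counts with these library sizes, 198 of 200 changed genes (log2 fold change 1.5) were recovered among 13516 tested, with 9 false calls. The simulation gave every gene the same dispersion, changed well-counted genes alone and had no library that stood apart. It checks the code and does not measure the error rates of the calls in these data. Alternatives were RLE scaling, library size alone, TMM without Defa genes, other filters, DESeq2 1.42.0, limma-voom (limma 3.58.1), a replicate block, an adjusted p under 0.01 and leaving out each library. Cxcl2 and Cxcl5, which the filter left out, were compared by an exact two-sided permutation test. No 2 libraries of a group differed by as little as sampling noise (chi-square per degree of freedom at least 8.77). P-values measure the spread between these libraries. Upstream windows and their exons were read from GRCm39 and its annotation.

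The chemokine genes, the gene lists and the motifs were chosen with earlier results of these data known. Named were all 10 chemokine genes, from each other list the up to 6 genes called with at least a 2-fold change and the smallest p, and the receptors of the 10. Adam10, Adam17, Dpp4, Sdc4, Ackr3, Ackr4, Nfkbiz, Zfp36l1, Zfp36l2, Rc3h1, Rc3h2, Ccl6, Ccl7, Ccl12, Ccl25 and the overlapping genes were named after their values were seen. Values of 1 of the genes most alike in profile and of 1 cell type marker are not reported here.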

Additional observations from a re-analysis of the deposited data

Results flagged for a closer look

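Within groups of 4 libraries, 15 sets of 1 gene and 1 group were examined at both ends, and 4 values lay so far from the rest that the gap to the nearest library, divided by the whole range, passed Dixon's 95% critical value for 4 samples, which chance passes in about 1 of 20 groups. PBS replicate 4 was high for Cxcl9 (0.792 normalized CPM, gap 0.893 of the range) and for Cxcl10 (0.837 normalized CPM, gap 0.948). PBS replicate 2 was low for Ccl20 (0.483 normalized CPM, gap 0.906). TNF replicate 4 was low for Cx3cl1 (15.6 normalized CPM, gap 0.87), in a group whose SD was 0.538.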

How the results depend on the processing

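All 7 tested chemokine genes kept a higher level in TNF under all 16 alternatives to the fit, and all except Cxcl9 kept their call at an adjusted p under 0.05. The count of called chemokine genes was 6 with library size alone, at an adjusted p under 0.01, and without TNF replicate 2 or 3, 9 in DESeq2 and in edgeR without the filter, and 7 or 8 in the other alternatives. Library size alone called 3182 of all tested genes against 5747, 4 against 10 of the shedding and surface list and 3 against 5 of the mRNA decay list. It moved the median log2 fold change of all genes by -0.40 from that with TMM. Which scaling is nearer the true levels was not tested. The other ligands called, 1 in the edgeR fit with TMM, were 0 with the replicate block, in DESeq2, in limma-voom and at an adjusted p under 0.01, and 0 to 2 when 1 library was left out. At an unadjusted p under 0.05 their number was 0 with the block and 1 in DESeq2 and in limma-voom. The cause was not tested. The Cx3cl1 share of the PBS sum was 68.2% in plain CPM against 51.4% per length, since a CPM share gives longer transcripts more weight. In all, 119 of the list counts and shares stayed within the limits set for a change and 12 did not. For the tested chemokine genes and the genes named by rule from the other lists, 353 single-gene values kept their call and 15 lost it. None of these had a turned direction. Genes named after their values were seen, among them Adam10, Adam17 and Zfp36l1 with their lost calls, are not in this tally.

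No pairing by replicate number was seen, as same-numbered libraries had correlations of deviations of 0.0229, 0.0663, -0.144 and -0.126. Deviations from means of 4 libraries can miss a pairing. With the replicate block 5087 genes and 7 chemokine genes were called. The depth limits Cxcl5, at 1 to 4 counts in TNF, and Ccl2, and it limits the PBS level of Cxcl9, Cxcl10 and Cxcl11, which rested on 1 to 5 counts in 3 of 4 libraries. Fitted folds of these depend on those few counts.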

Other observations

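Among the genes whose profile over the 8 libraries was most like the mean standardised profile of the 7 tested chemokine genes (log2 normalized CPM, Pearson's r) were Mak16 (0.9978), Raph1 (0.9977), Gas2l1 (0.9974) and Casp4 (0.9972). Of 13361 genes 6.56% had an r above 0.95, and most of any such likeness is the difference between the groups, which these 8 libraries share. Since these genes were chosen for this pattern, their difference between the groups was not tested.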
